A study of Mus musculus with 2 samples.

Results

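The Dlx5-positive smooth muscle class comprised 113 cells of the Tsc1 knockout (KO) aortic library, 5.89% of its 1919 eGFP-positive cells (exact binomial 95% interval 4.88% to 7.04%). Members were chosen by their UMI counts (unique molecular identifiers, 1 per captured RNA molecule): at least 500 genes detected, at most 10% of UMIs from mitochondrial genes, at least 5 eGFP UMIs, and at least 2 UMIs of Dlx5, Dlx6 and Msx2 summed. The other 1806 eGFP-positive cells of the same library had a sum below 2 and served as the comparison. These were 113 of the 4192 cells deposited in the series, and the same rule picked 256 of 1692 eGFP-positive cells (15.1%, 13.5% to 16.9%) in the control library.

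Both libraries came from thoracic aortas of male C57BL/6 mice aged 24 weeks that had received tamoxifen at 1.5 weeks. Control mice (Tsc1+/+) carried Myh11-CreERT2, a tamoxifen-activated recombinase driven by a smooth muscle myosin promoter, and the mT/mG reporter, which turns a recombined cell from membrane tdTomato to membrane eGFP. KO mice carried the same alleles and floxed Tsc1, so that both groups shared recombinase, reporter and tamoxifen, and viable GFP+ cells were sorted for 10x droplet sequencing. There was 1 library per genotype and the sources used here do not give the number of mice behind each, so no comparison below has a replicate check or a test, and every interval covers counting error only.

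Dlx5, Dlx6 and Msx2 encode homeodomain transcription factors. In the embryo, Dlx genes pattern the pharyngeal arches, whose neural crest cells give rise to smooth muscle of the aortic arch and its great vessels, and Msx2 acts beside them in arch and skull development. Dlx5 and Msx2 are also known from bone formation. Tsc1 encodes hamartin, a subunit of the complex that restrains the growth kinase mTORC1. Tsc1 itself was counted at 12.3 CPM (UMIs of a gene per 1000000 UMIs of the population) in the class and at 12 CPM in the control class. The sources used here do not state which stretch of the transcript these UMIs cover, so these counts do not check the deletion.

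The members were smooth muscle by their markers, at a reduced level. Of 10 smooth muscle markers, 8 reached 50 CPM in the class and their summed level was 9555 CPM, against 23814 CPM in other KO eGFP cells and 2139 CPM in the eGFP-negative cells of the control library. Defining endothelial genes (Cdh5, Kdr, Tie1 and Vwf), Schwann cell genes (Sox10 and Cdh19), the adipocyte genes Adipoq and Plin1, and the macrophage genes C1qa, C1qb and Adgre1 had 0 UMIs in the 1953508 UMIs of the class. The 8 fibroblast markers summed to 1692 CPM in the class and 1567 CPM in other KO eGFP cells, with Dpt at 0, and the 6 pericyte markers to 589 and 472 CPM, with Higd1b and Vtn at 0. The 6 osteoblast markers summed to 420 and 402 CPM, with Ibsp at 0. Some marker sums were higher in the class: the 8 endothelial markers summed to 29.2 against 12 CPM (2.43, 1.80 to 3.22), the 6 Schwann cell markers to 40.4 against 15.6 CPM (2.59, 2.01 to 3.30), the 5 chondrocyte markers measured, of 6 listed, to 173 against 109.7 CPM and the 5 adipocyte markers to 204 against 166 CPM. Macrophage markers summed to 16.4 against 15.1 CPM, lymphocyte markers to 2.05 against 3.50 CPM and cardiomyocyte markers to 29.2 against 180.2 CPM. The part of other cell types in the gene differences was not tested.

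The median member held 16072 UMIs and 4002 detected genes, against 14909 UMIs and 3739.5 genes in other KO eGFP cells. Their median mitochondrial share was 5.32% against 5.75%, and their median eGFP count was 47 against 46 UMIs. None of the 113 members was called a doublet, against 6 of the comparison cells. The control cells were shallower, with a median of 10352.5 UMIs in the class and 11983.5 in other eGFP cells. With every cell thinned to 5000 UMIs before the rule was applied, 31 of 1902 KO cells (1.63%, 1.11% to 2.31%) and 144 of 1602 control cells (8.99%, 7.63% to 10.5%) passed. The share that passes also depends on the level of the rule genes in a cell. What lay behind the difference in share was not tested. The libraries shared 16 cell barcodes, 1 of them that of a KO member.

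The genes that chose the members are given as a description. Dlx5 was detected in 106 of 113 members, Dlx6 in 75 and Msx2 in 32, and the sum had a median of 3 UMIs and a highest value of 14. Dlx5 and Dlx6 without Msx2 was the most frequent combination, in 52 members, followed by Dlx5 alone in 27 and all 3 genes in 17. Only 1 member passed on Msx2 alone. In the control library Msx2 was detected in 162 of 256 class cells (63.3%, 57.1% to 69.2%) against 28.3% (20.2% to 37.6%) of KO members, while Dlx5 was detected in 206 (80.5%). Msx2 stood at 20.5 CPM in the KO class and 108 CPM in the control class, Dlx5 at 139 and 169 CPM, and Dlx6 at 55.8 and 102 CPM. The rule and the depth per cell, which was lower in the control library, both bear on these levels, so they are set side by side with no comparison.

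Just inside the threshold, the 47 cells with 2 UMIs of the rule genes had 42.7 CPM of Dlx6os1, 118 CPM of Prss12 and 412 CPM of Aqp1. Just outside it, the 116 cells with 1 UMI had 11.9, 41.8 and 231 CPM, and the 1690 cells with 0 had 1.23, 8.52 and 72.5 CPM. Acta2, the smooth muscle actin, ran the other way, at 4675 CPM with 2 UMIs, 8504 CPM with 1 and 11992 CPM with 0. The cells with 1 UMI thus lay between the members and the cells with none on all 4 genes.

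**Figure D1:**
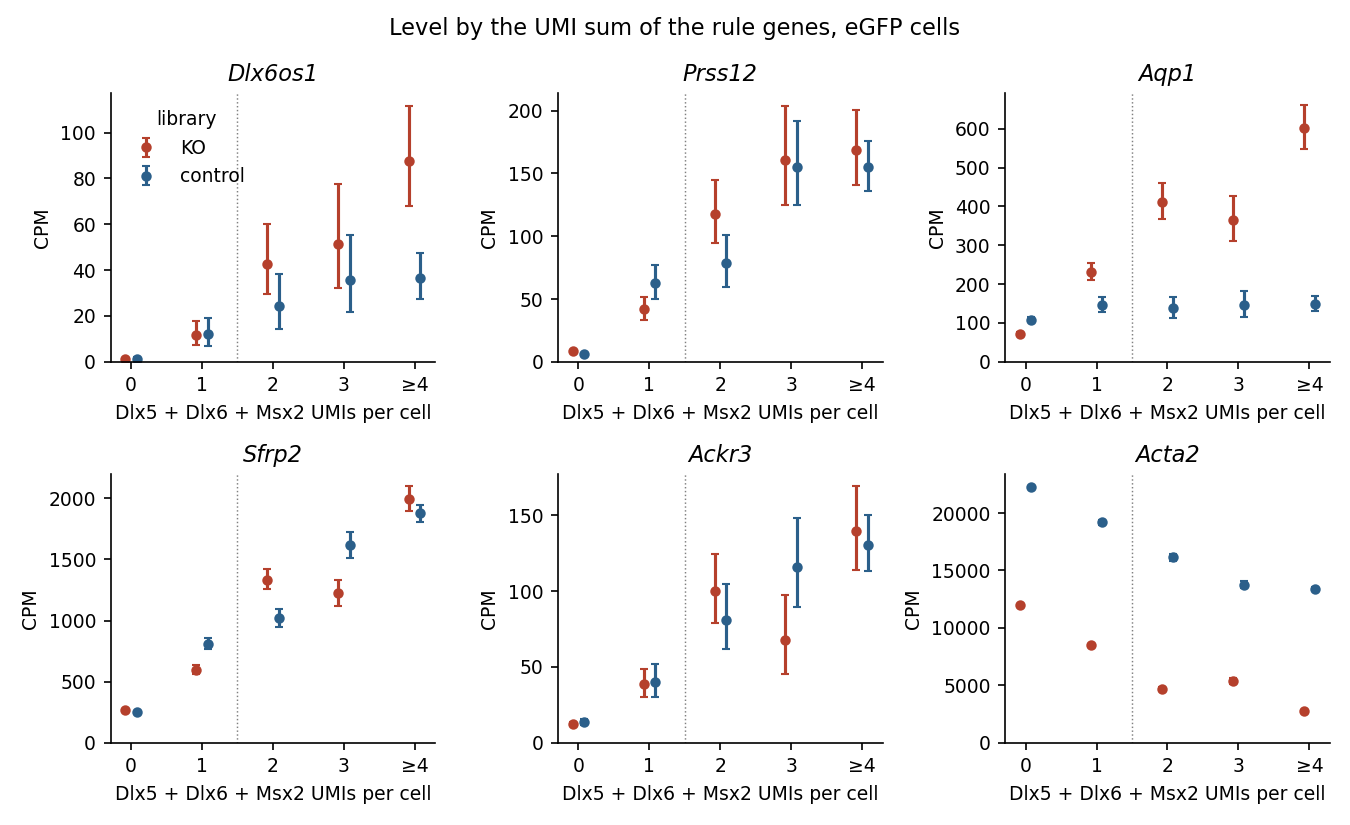
CPM of 6 genes (vertical axes) by the UMI sum of Dlx5, Dlx6 and Msx2 per eGFP cell (horizontal axes) in the KO and control libraries, with exact Poisson 95% intervals; cells right of the dotted line form the class. Prss12, Sfrp2, Ackr3 and Dlx6os1 were higher at 2 or more rule UMIs than at 0 in both libraries, while Aqp1 in the control cells stayed between 109 and 149 CPM.

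Dlx6os1, the long noncoding RNA of the Dlx5 and Dlx6 locus, lies at chr6:6820189-6871592 (mm10, minus strand) and overlaps Dlx6 at chr6:6863334-6868568 (plus strand), with Dlx5 next to them at chr6:6877805-6882085 (minus strand). The sources used here do not state whether the counting used strand, so UMIs of Dlx6os1 and Dlx6 may not be separable. Homeodomain proteins bind short AT-rich sites with a TAAT core, and the 250 bases before the RefSeq starts (build GRCm38.p6, which is mm10) of Dlx6os1 (chr6:6869534-6869783, minus strand), Tfap2b (chr1:19211804-19212053, plus strand) and Prss12 (chr3:123446663-123446912, plus strand) are shown because Dlx6os1 and Prss12 marked the class in both libraries and Tfap2b had the highest ratio of the crest regulators. Capitals mark TAATTA, which is its own reverse complement, and TAATTG on either strand.
Dlx6os1: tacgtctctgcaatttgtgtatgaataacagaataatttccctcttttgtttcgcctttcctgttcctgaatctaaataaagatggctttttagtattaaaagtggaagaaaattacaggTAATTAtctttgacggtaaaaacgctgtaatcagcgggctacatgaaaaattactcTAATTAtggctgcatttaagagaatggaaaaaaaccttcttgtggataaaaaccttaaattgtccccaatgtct
Tfap2b: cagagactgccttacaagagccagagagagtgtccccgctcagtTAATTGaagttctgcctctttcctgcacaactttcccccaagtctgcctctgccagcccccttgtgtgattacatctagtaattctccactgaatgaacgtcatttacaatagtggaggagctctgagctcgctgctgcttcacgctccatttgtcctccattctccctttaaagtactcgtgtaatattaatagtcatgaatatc
Prss12: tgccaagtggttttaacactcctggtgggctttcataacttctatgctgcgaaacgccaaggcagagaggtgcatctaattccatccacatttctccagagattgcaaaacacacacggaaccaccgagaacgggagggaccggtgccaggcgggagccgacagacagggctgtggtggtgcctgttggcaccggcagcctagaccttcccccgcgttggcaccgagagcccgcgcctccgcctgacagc
The Dlx6os1 window held TAATTA at 2 places, the Tfap2b window held TAATTG at 1, and the Prss12 window held neither. Of the 13 windows looked at, of 12 class genes, 9 held neither motif, those of Inmt, Aqp1, Coch, Gng2, Prrx2, Ackr3, Sfrp2 and Dlx2 among them, while a second Dlx6os1 window held both and the Msx2 window held TAATTA. Among all 32851 RefSeq windows of this length, 4.84% held TAATTA, 7.17% held TAATTG and 11.3% held either. Either motif was in 5.80% of the windows of genes at 50 CPM or more in the KO library. The share was 9.64% for genes at least 1.5 times higher in the class and 9.92% for those lower, so higher and lower genes were alike. A match describes the letters in the window and no binding was measured.

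Against other KO eGFP cells, 194 of 3022 genes at 50 CPM or more in either population were at least 1.5 times higher in the class (6.42%) and 121 were at least 1.5 times lower (4%). The rule genes were left out of these counts, and genes correlated with them were favoured by the choice of cells, so the counts are a description. Among genes with established names, the highest ratios were those of Coch, Dlx6os1, Megf10, Inmt and Gng2, and the lowest those of Tnnt2, Mcam, Fbxl22, Actg2 and Postn.

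Dlx6os1 had 121 UMIs in the members, between 0 and 14 per cell, and stood at 61.9 CPM (51.4 to 74.0) in them and 1.94 CPM (1.47 to 2.52) elsewhere, 31.9 times higher (23.0 to 44.6). It was detected in 46% of members and 2.10% of other cells. Prss12, which encodes the secreted protease neurotrypsin, had 287 UMIs with a median of 2 and a highest value of 12 per member. Its level was 147 CPM (130 to 165) against 10.8 CPM (9.59 to 12), 13.7 times higher (11.6 to 16.1), and it was detected in 74.3% of members against 11.1% of other cells. Of Dlx6os1, Inmt, Megf10 and Prss12, the last was shared by most members, and the share with a UMI was 50.4% against 4.92% when cells were thinned to 5000 UMIs. In the 350 eGFP-negative control cells 1.71% had a Prss12 UMI, at a median of 3780.5 UMIs per cell.

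Megf10, an engulfment receptor with EGF-like repeats, stood at 90.6 CPM (77.7 to 105) against 3.50 CPM (2.85 to 4.26), with a UMI in 49.6% of members and 3.38% of other cells. Inmt, an N-methyltransferase of small amines such as tryptamine, stood at 99.3 CPM (85.8 to 114) against 4.58 CPM (3.83 to 5.43). The level of Inmt came from few cells: 26 members had a UMI, the median was 0, the highest value was 46, and 10 members held 90.2% of its 194 UMIs. The 10 members richest in a gene held only 28.2% of Prss12 UMIs and 36.2% of Megf10 UMIs. Without the member that had most, Inmt was at 76.4 CPM, 16.7 times (13.1 to 21.3) the level of other cells. The 42 members outside the cluster that holds most of the class (cluster 4, described later) had 4 Inmt UMIs, or 4.90 CPM, 1.07 times (0.287 to 2.80) the level of other cells.

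Regulators of the pharyngeal arch and neural crest were mixed. Of 44 listed genes, 18 reached 10 CPM in either population, 6 of them higher and 2 lower by 1.5 times or more, and their median log2 ratio was 0.20. Over all 8173 genes at 10 CPM, 8.05% were higher and 4.43% lower, with a median of 0.08. Tfap2b, an AP-2 factor of neural crest cells, stood at 24.1 CPM (17.7 to 32.0) against 0.590 CPM (0.344 to 0.944), 40.8 times higher (23.0 to 75.8), with 47 UMIs in 23 members, all of them in cluster 4. Prrx2, a paired-type homeobox gene of craniofacial mesenchyme, stood at 54.8 against 6.87 CPM (7.97, 6.24 to 10.1). Foxf1, a forkhead gene, stood at 12.3 against 2.98 CPM, and Ednra, the endothelin-1 receptor that drives Dlx5 and Dlx6 in the embryonic arches, at 12.3 against 3.57 CPM. In the 42 members outside cluster 4 the ratios were 1.23 (0.249 to 3.72) for Foxf1 and 1.37 (0.366 to 3.62) for Ednra, from 3 and 4 UMIs. Hand2, itself a target of that pathway in the embryo, was lower at 20.0 against 51.0 CPM (0.391, 0.277 to 0.537). The Hox genes, which set position along the body axis, gave 3 members at 10 CPM and 0 of them differed by 1.5 times. Hoxa3 stood at 31.2 against 25 CPM, Hoxa5 at 15.9 against 12.1 and Hoxb2 at 14.3 against 15.6.

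Within the Dlx and Msx family beyond the rule, 3 of 3 measured members were higher, Dlx6os1 among them, where 8.05% of all genes at 10 CPM were higher. The cells were chosen by genes of this family, and UMIs of Dlx6os1 and Dlx6 may not be separable, so the count is a description. Dlx2 stood at 12.8 CPM (8.28 to 18.9) against 0.798 CPM (0.506 to 1.20), and Msx1 at 39.4 against 17.7 CPM (2.22, 1.73 to 2.83). In the 42 members outside cluster 4 the ratios were 3.07 (0.351 to 12.4) for Dlx2, from 2 UMIs, and 1.86 (1.22 to 2.75) for Msx1.

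Contractile genes were lower than in the pooled other KO eGFP cells. Of 30 listed genes, 28 were measured, 16 were lower and 1 was higher, with a median log2 ratio of -0.80. The shares over all 8173 genes at 10 CPM were 4.43% for lower and 8.05% for higher genes. Over those genes the median log2 ratio stood at 0.08. Acta2 stood at 4093 CPM against 11758 CPM (0.348, 0.340 to 0.356), Tagln at 1995 against 4900.2, the tropomyosin gene Tpm2 at 776 against 1929, and Myh11, the gene whose promoter drives the recombinase, at 443 against 874 CPM. Actg2, the enteric smooth muscle actin, was 3.97 times lower, and Ppp1r14a, an inhibitor of myosin phosphatase, 3.79 times lower. Des had 3 UMIs in the class (ratio 0.0642, 0.0132 to 0.189). The contractile genes together made up a median of 1.50% of a member's UMIs, with 10th and 90th percentiles of 0.679% and 3.51%, and 3.42% (0.884% and 6.63%) of the UMIs of other KO eGFP cells. The ranges overlapped widely, and a low share was not particular to the class. The 673 cells of cluster 1 (described later), 26 of them members, had a median of 1.35%. The medians were 3.98% in cluster 2 and 5.61% in cluster 3. When the comparison was restricted to cells within the members' own contractile range, 156 genes were higher and 89 lower, and 135 of the 194 higher and 53 of the 121 lower genes remained listed. There the log2 ratios of Myl9 (0.054) and Cnn1 (0.38) turned positive.

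**Figure D2:**
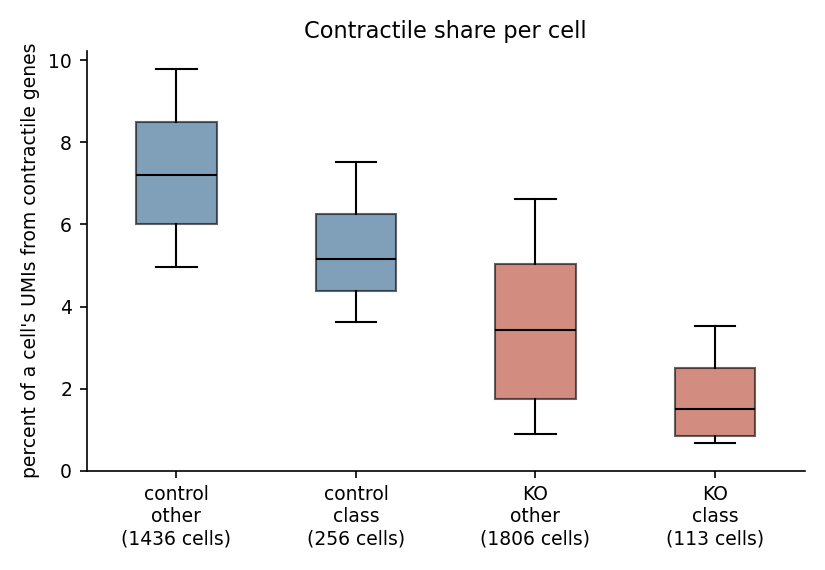
Percent of each cell's UMIs from the contractile gene list (vertical axis) in the 4 populations; lines mark medians, boxes the quartiles and whiskers the 10th and 90th percentiles over cells. The medians were 7.21% in control other cells, 5.17% in the control class, 3.42% in KO other cells and 1.50% in the KO class.

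Secreted Wnt inhibitors and guidance cues were among the higher genes. Of 25 measured Wnt pathway genes, 8 were higher and 2 lower, where 8.05% of all genes at 10 CPM were higher and 4.43% lower. Sfrp2 stood at 1566 CPM against 291 CPM (5.37, 5.15 to 5.60), and was detected in 93.8% of members with a median of 14 and a highest value of 369 UMIs. Frzb stood at 701 against 183 CPM (3.83, 3.60 to 4.06). Wnt16 and Nkd1 were the lower ones, at 32.2 against 69.4 and 34.8 against 59.6 CPM. Of 23 guidance genes, 6 were higher and 1 lower, with Sema3c, a semaphorin needed for outflow tract septation, at 115 against 30.9 CPM (3.71, 3.19 to 4.30). The BMP and TGF-beta list, with 4 of 35 higher and 2 lower, was near those shares of all genes, and its highest ratio was that of Gdf10 at 43.5 against 5.0 CPM, with 85 UMIs in 14 members, 28 of them in 1 member.

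The matrix list had 13 higher and 7 lower genes of 50, against 8.05% and 4.43% of all genes. Col15a1, a basement membrane collagen, stood at 316 against 69.6 CPM (4.54, 4.14 to 4.97), the proteoglycan Vcan at 65.0 against 15.8 CPM, and the elastic fibre genes Fbln5 at 1729 against 757 CPM and Mfap5 at 331 against 119 CPM. In the 42 members outside cluster 4 the ratio was 0.931 (0.477 to 1.64) for Vcan and 2.57 (2.16 to 3.04) for Col15a1. Postn, a matricellular protein, was 3.89 times lower (81.9 against 319 CPM). Among surface and signalling genes, the chemokine receptor Ackr3 stood at 108 against 14.0 CPM (7.71, 6.49 to 9.12) and its ligand Cxcl12 at 485 against 156 CPM (3.11, 2.90 to 3.34). Thbd, the thrombin receptor thrombomodulin, stood at 174 against 32.2 CPM, and the water channel Aqp1 at 476 against 83.2 CPM (5.72, 5.29 to 6.17), in 89.4% of members and 39.0% of other cells. Mia, a small secreted protein first known from cartilage and melanoma, stood at 133 against 25.5 CPM. The bone and cartilage list had 5 higher and 2 lower genes of 17. Sox9, a chondrogenic factor, stood at 147 against 79.4 CPM. Runx2, the osteoblast factor, stood at 10.7 against 3.68 CPM, from 21 UMIs in 19 members. The cartilage genes Acan and Comp had ratios below 1 from few UMIs, 15 and 23 in the class. Bglap and Alpl had 1 UMI each there. Without each gene's top member, which lowers class levels, the ratios were 1.75 for Sox9 and 2.67 for Runx2. In that setting they were 0.517 (0.265 to 0.916) for Acan and 0.572 (0.342 to 0.904) for Comp, which does not show that either was lower with all members. In the 42 members outside cluster 4 the ratios were 1.02 (0.486 to 1.90) for Acan and 0.215 (0.0441 to 0.631) for Comp, from 10 and 3 UMIs.

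Of the other lists, lysosomal genes had 5 higher and 0 lower of 48, vasoactive receptors and channels 4 higher and 8 lower of 24, Notch genes 2 higher and 1 lower of 13, mTOR, glycolysis and sterol genes 3 higher and 2 lower of 41, and cell cycle genes 0 higher and 1 lower of 9. Beside 8.05% higher and 4.43% lower over all genes, the counts of the lysosomal, mTOR and cell cycle lists in particular are no result about those lists. In the mTOR list Deptor, which encodes an mTOR inhibitor, stood at 24.1 against 6.66 CPM (3.61, 2.57 to 4.99). Dissociation and immediate early genes, which respond to tissue digestion, had 8 higher and 2 lower of 29, among them Klf2 at 898 against 416 CPM and Jun at 1248 against 638 CPM. Whether digestion had a part in the differences was not tested.

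The same contrast was then read in the control library, in other cells chosen by the same rule. Genes correlated with the rule genes were thus favoured in both libraries, so the overlap is a description. There, 272 of 3041 genes were higher in the class (8.94%) and 137 lower (4.51%). Of 2664 genes at 50 CPM in both libraries, 137 were higher and 110 lower in the KO class. Of the 137, 90 were also higher in the control class, which is 65.7% of the KO list and 45.7% of the 197 genes on the control list, where 7.39% of all these genes were higher. Of the 110, 55 were also lower in the control class, 50% of the KO list and 47.4% of the 116 on the control list, against 4.35% of all. In neither direction was a listed gene past 1.5 times the opposite way.

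Prss12 and Sfrp2 had nearly the same levels in both genotypes. Prss12 stood at 135 CPM (122 to 149) in the control class and 10.6 CPM in other control eGFP cells (12.7, 10.6 to 15.3), and Sfrp2 at 1601 against 298 CPM (5.37, 5.16 to 5.59). Gng2 (12.1, 9.02 to 16.2), Ackr3 (7.17, 6.09 to 8.45), Thbd (4.46) and Mia (4.64) were higher in the control class too, as were Tfap2b (14.0, 9.34 to 21.5) and Coch (20.1, 12.4 to 33.5). Prrx2 was 9.40 times higher there (8.33 to 10.6) but at a higher level, 244 against 26.0 CPM. Gng2, a G protein gamma subunit, and Lmo2 were also present outside the smooth muscle lineage label, with a UMI in 26.3% and 23.1% of eGFP-negative control cells. Among the lower genes shared by both libraries, Postn had a ratio of 0.289 in the control library, the secreted retinol carrier Rbp4 0.213 and Sncg 0.128.

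**Figure D3:**
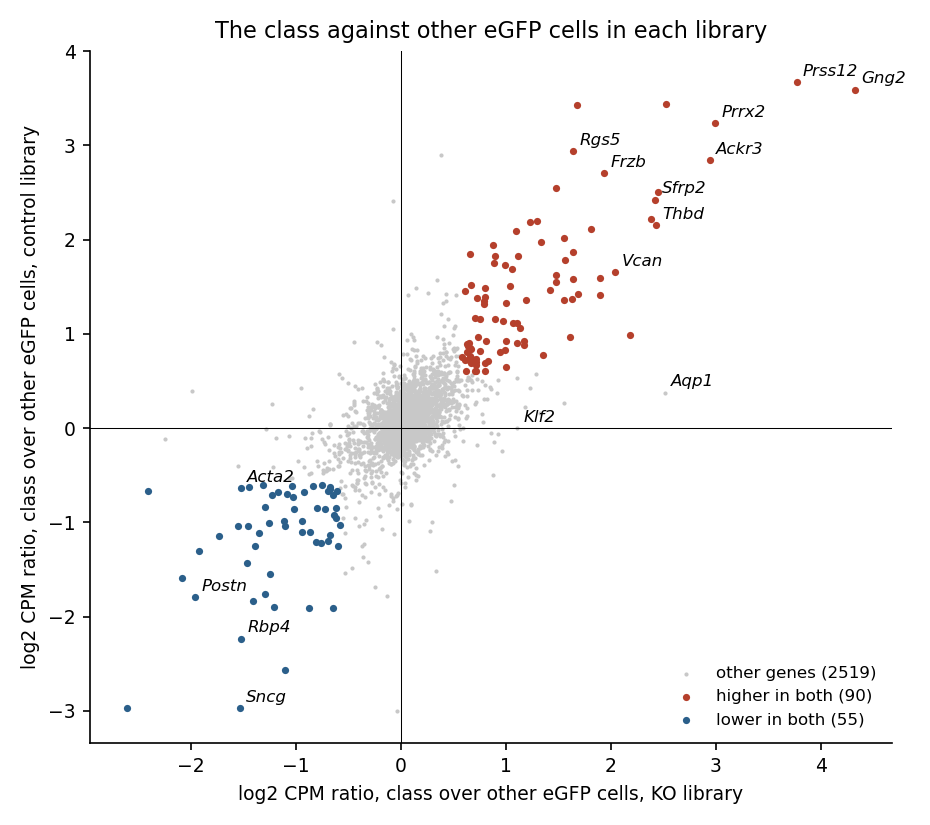
log2 ratio of CPM in the class over other eGFP cells, KO library (horizontal axis) against control library (vertical axis), for genes at 50 CPM or more in both libraries. The 90 genes higher in both and the 55 lower in both are coloured, and no gene passed 1.5 times in opposite directions.

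Other genes of the KO class had little or no counterpart in the control class. Aqp1 was 1.30 times higher in the control class (1.17 to 1.45; 146 against 112 CPM). Inmt had 0 UMIs in 256 control class cells, so its level in the KO class was at least 93.7-fold higher, taking a floor of 3 counts over the group. Lmo2, a LIM-domain transcriptional partner, and Prg4, the gene of lubricin, also had 0 there, and stood at 155 and 59.4 CPM in the KO class. Other KO eGFP cells carried these genes as well, at 4.58, 32.4 and 12.8 CPM, against 0.0582, 0.116 and 0.0582 CPM in other control cells. Megf10 was low in the control library, 7.42 CPM (4.59 to 11.3) in its class and 0.349 CPM in other cells, so that the class ratio of 21.2 (8.29 to 64.3) was near that of the KO library while the KO class held 12.2 times (7.75 to 20.2) the control class level.

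KO against control within the class, contractile genes were lower for 26 of 28 and higher for 1, where 19% of all 8595 genes at 10 CPM were lower and 15.3% higher. In other eGFP cells the same list was lower for 27 of 29 and higher for 0, where 10.6% of 8074 genes were lower and 14.1% higher, so the list was lower in the KO library outside the class too. Acta2 stood at 0.289 times the control class level (0.282 to 0.296), against 0.534 times for other eGFP cells. Prrx2 stood at 0.224 times, Dlx2 at 0.270 times and Vcan at 0.268 times, beside 0.265, 0.292 and 0.205 in other eGFP cells. Rgs5, a G protein signalling regulator of mural cells, stood at 132 CPM in the KO class and 2673 CPM in the control class, 0.0494 times (0.0435 to 0.0559), and at 0.121 times in other eGFP cells. Modulated smooth muscle and inflammation genes were higher in the KO class for 22 of 23 and lower for 0, led by Gpx3, an extracellular glutathione peroxidase, at 5231 CPM against 1 UMI, or 0.353 CPM (0.00894 to 1.97), in the control class. In other eGFP cells this list was higher in the KO library for 23 of 23, so its difference between libraries was not limited to the class. Against other KO eGFP cells the same list had 8 higher and 2 lower of 23, and Gpx3 was 3.01 times higher (2.95 to 3.08). In the control library at 10 CPM, 13.1% of all 8151 genes were higher and 3.97% lower in the class, and the arch list had 10 higher and 1 lower of 20 and the contractile list 1 higher and 8 lower of 30.

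The members were not uniform. When KO eGFP cells were clustered without Dlx5, Dlx6, Dlx6os1 and Msx2, 71 members (62.8%, 53.2% to 71.7%) fell into a cluster of 104 cells, cluster 4, led by Coch, Adamtsl1, Dlx6os1 (read after clustering), Megf10 and Inmt. Cluster 1, 673 cells led by Cytl1, Spp1, Igf1 and Dcn, held 26 members, cluster 2 held 11 and cluster 3 held 5. Clusters were formed from these genes, so levels between them are a description. Members in cluster 4 had 231 CPM of Prss12, 141 of Megf10, 95.9 of Dlx6os1 and 97.7 of Coch. Members in cluster 1 had 38.5, 29.3, 7.33 and 0 CPM, and the 11 members in cluster 2 had 11.7, 5.84, 23.3 and 0 CPM.

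The 33 cells of cluster 4 that missed the rule had levels near those of its members for Prss12, Megf10, Dlx6os1, Coch and Aqp1. Of these, 16 had 1 UMI of the rule genes and 17 had none, and their median depth was 12525 UMIs against 14870 in the 71 members. They had 211 CPM of Prss12, 134 of Megf10, 86.4 of Dlx6os1, 81.6 of Coch, 106 of Inmt and 579 of Aqp1, beside 167 CPM of Inmt and 612 CPM of Aqp1 in the members. Sfrp2 stood at 3056 CPM in them and 2330 CPM in the members. Apart from Dlx6os1, these genes could form the cluster, so likeness within it was favoured by the clustering and is a description. By count, the rule took 71 of the 104 cells of cluster 4, and 42 of 113 members lay outside it. In cluster 1, members pooled still had more Prss12 than the 647 other cells (38.5 against 14.4 CPM), more Megf10 (29.3 against 3.26) and more Aqp1 (372 against 147), and similar Sfrp2 (552 against 505). That Megf10 level came mainly from members with 5, 5 and 4 UMIs, and most of the 26 had 0.

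**Figure D4:**
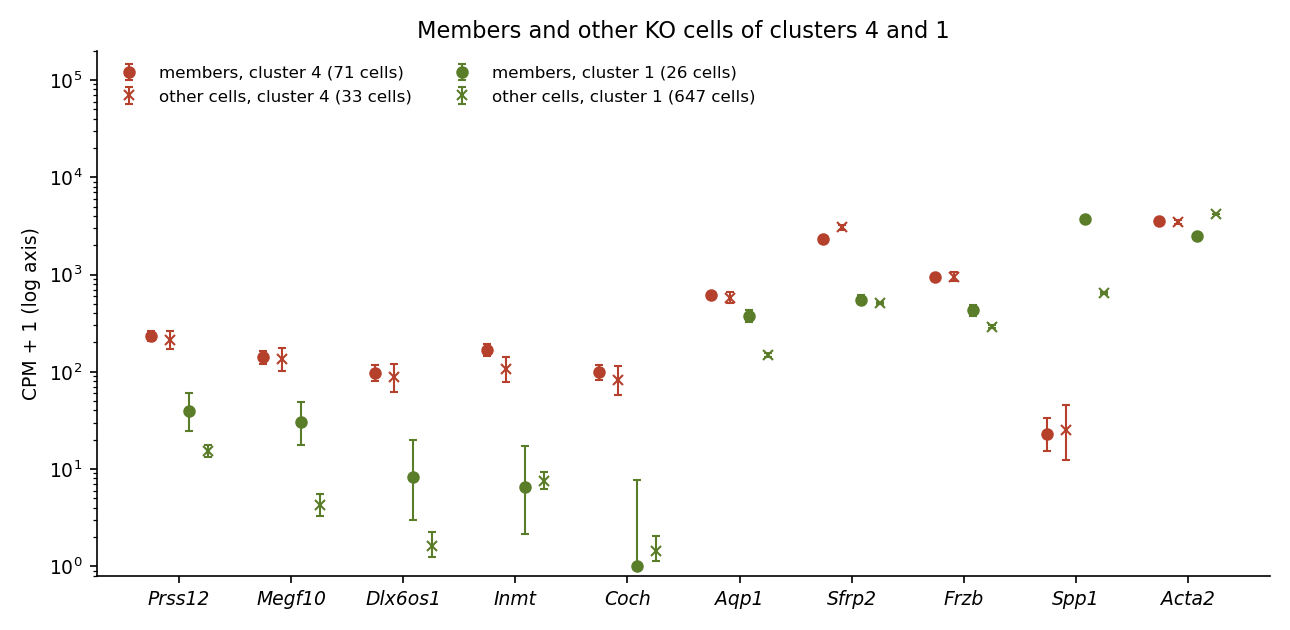
CPM + 1 (log axis) of 10 genes in members and other KO eGFP cells of clusters 4 and 1, with exact Poisson 95% intervals. In cluster 4 members and other cells lie close together for Prss12, Megf10, Dlx6os1, Coch and Aqp1, and cluster 1 members hold fewer of these. Apart from Dlx6os1, the genes shown could form the clusters, so this closeness is a description. The Spp1 level of cluster 1 members comes mainly from 3 cells with 1774, 162 and 51 UMIs, and 13 of the 26 have 0.

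Some class-level values came from very few members. Spp1, the gene of osteopontin, stood at 1047 CPM in the class against 292 CPM, but 1 member of cluster 1 held 1774 of its 2045 UMIs, and without that member the level was 141 CPM, 0.482 times (0.426 to 0.544) that of other cells. The same cell held 392 of 524 UMIs of Timp1, a metalloprotease inhibitor, whose ratio without it was 0.551. The member with most UMIs, 50313, held 77 of 111 UMIs of Gsta4 and 50 of 117 of Gsta3, both glutathione transferases, and without it their ratios went from 7.15 to 2.25 and from 7.28 to 4.28. It also held 52 of 135 UMIs of the protease Ctsk. When each gene's own top member was left out, 167 of the 194 higher genes stayed listed.

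Rgs5 and Inmt were each high in few members. Rgs5 had 10 or more UMIs in 9 members, 8 of them in cluster 4, and these held between 0 and 1 UMI of Inmt, a median of 4 UMIs of Gpx3, 7111 CPM of Acta2 and 805 CPM of Cnn1, the calponin gene. Inmt had 10 or more UMIs in 5 members, all in cluster 4, and these held between 0 and 1 UMI of Rgs5, a median of 200 UMIs of Gpx3, 1410 CPM of Acta2 and 12.3 CPM of Cnn1. No member was in both sets, which are too small for that count to show a separation, and 4 members had a UMI of both genes, of 32 with Rgs5 and 26 with Inmt. Both sets had Prss12, at 253 and 331 CPM. These groups were picked by these genes, so their levels carry no test.

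**Figure D5:**
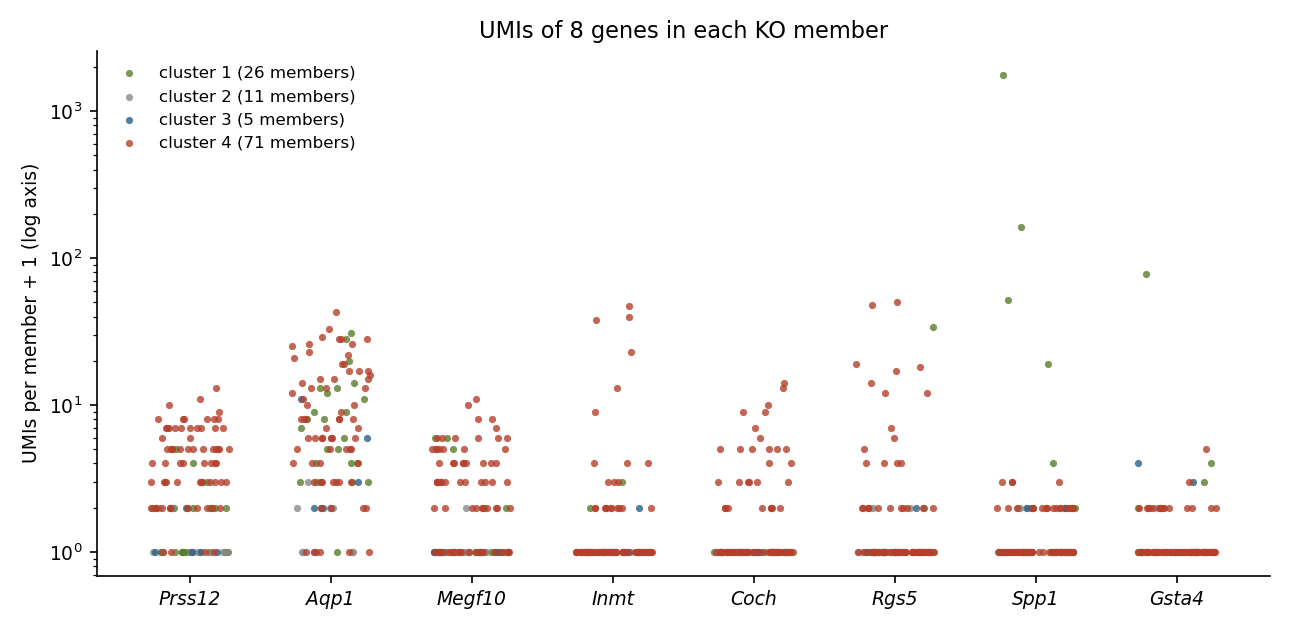
UMIs + 1 (log axis) of 8 genes in each of the 113 KO members, coloured by cluster; points are spread sideways for visibility. Prss12, Aqp1 and Megf10 are spread over many members, whereas Inmt, Rgs5, Spp1 and Gsta4 are high in few, with Spp1 at 1774 UMIs in 1 member.

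In the authors' deposited table of cluster averages, Dlx5 was highest in the columns for their cluster 4, at 1.92 (KO) and 1.54 (control) mean counts per 10000, and at most 0.218 in any other column. The authors' deposited table gave Prss12 at 3.66 and 2.09 in those columns. In the authors' deposited table Inmt was listed at 0 in cluster 4 of the KO library and at 0.304 in cluster 2. Coch was listed at 0 and 0.108 in these KO columns, and Megf10 was slightly lower in cluster 4 than in cluster 2. Dlx6os1 went the other way, at 1.02 in cluster 4 and 0.104 in cluster 2, as did Prrx2, at 4.92 and 0.146. The authors' cluster numbers are separate from those of the clusters formed here. Whether their cluster 4 held the members was not tested.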

How the data were processed

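The authors deposited UMI counts of every gene and cell, not normalized, for both libraries. The tools named in the submitters' processing notes are Cell Ranger, bcl2fastq and Seurat 2.0, with build mm10. The authors' deposited table of averages was read as a signal, mean counts per 10000, because each of its 16 columns sums to 10000. Members and gene lists were chosen with earlier results of these data known. Counts were summed over cells and divided by totals to give CPM (Python 3.11.15, scipy 1.17.1). Ratios have exact conditional binomial, counts exact Poisson and shares Clopper-Pearson 95% intervals. Zero counts were set at a floor of 3. KO eGFP cells were clustered with scanpy 1.11.5 (2000 variable genes, 30 components, 15 neighbours, Leiden resolution 0.5), and Scrublet marked doublets per library. The ratio script was tested on simulated data. Annotation matched 27645 of 28000 features. Genes named were those of the rule and class markers, the 20 largest and 15 smallest ratios at 50 CPM, list members at 10 CPM or more at either end or changed at least 2 times, the 10 most alike in both libraries, abundant genes and cell type markers; Adamtsl1 was named after its values were seen. Values of some single genes on the lists are not reported here.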

Additional observations from a re-analysis of the deposited data

Results flagged for a closer look

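In 4 cases a gene moved past 1.5 times one way in one group and past 1.5 times the other way in another, with 1 library on each side, so the difference was not tested. Tnc, the matrix protein tenascin-C, had a class to other ratio of 2.70 (2.12 to 3.40) in the KO library and 0.0708 (0.0192 to 0.183) in the control library, from 44.0 against 16.3 CPM and 1.41 against 20.0 CPM. Timp1 had ratios of 2.15 and 0.540, and the first rested on 1 member, without which it was 0.551. KO against control, Fbln1, an elastic fibre gene, stood at 0.636 (0.551 to 0.733) in the class and 2.14 (1.90 to 2.41) in other eGFP cells. Hey2, a Notch target, stood at 1.63 (0.984 to 2.71) in the class and 0.662 (0.604 to 0.726) in other eGFP cells.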

How the results depend on the processing

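No paired analysis was possible because each group has 1 library. The share in the class was 11.9% with a rule sum of at least 1, 3.44% with at least 3, 7.41% with a mitochondrial limit of 5% and 1.63% with cells thinned to 5000 UMIs. Higher and lower genes numbered 99 and 68 with a rule sum of at least 1 (48 and 20 in both libraries, and 38.0% of members in 1 cluster), 649 and 370 in thinned cells (146 higher in both), 389 and 218 at a CPM minimum of 20 (179 and 84 in both), 110 and 72 at a minimum of 100 (53 and 29 in both), and 335 and 193 with only the members of cluster 4. With comparison cells matched in contractile share, 35 genes were lower in both libraries. The thinned class had 31 cells of 5000 UMIs each. The 2 alternatives on single members and on cluster 4 were chosen after seeing the data; the first lowers every class level by construction. Signs turned for Rgs2 (log2 ratio 0.20) with a rule sum of at least 1, Acan (0.30) at a mitochondrial limit of 5%, and Myl9 (0.054), Hspb1 (0.13) and Cnn1 (0.38) in the contractile-matched comparison. In thinned cells they turned for Prg4 (-0.18), Timp1 (-0.24), Sesn2 (-0.36), Spp1 (-1.70), Eif4ebp2 (0.021), S100b (-0.0035), Tbxa2r (0.64), Gsta4 (-0.51) and Pecam1 (-0.87). Timp1 and Spp1 also turned without their top member (-0.86 and -1.05) and with only cluster 4 (-1.62 and -3.73). Except for the dependence on 1 member, the causes were not tested. In the class 1 UMI equals 0.512 CPM, so genes under 10 CPM were not listed.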
